A study of Mus musculus with 8 samples.

Results

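The sodium pump was described here through 7 genes, the β subunit genes Atp1b1, Atp1b2 and Atp1b3 and the FXYD genes Fxyd1, Fxyd2, Fxyd3 and Fxyd5, all of which were found by their symbols among the 24552 genes counted. The list was drawn up by name with the CR versus AL fold changes of these libraries known, so the members count as chosen by the values of that contrast, which are given as a description and support nothing. LGs are the glands that make most of the watery part of tears, and the 8 libraries of mRNA 3' ends came from exorbital LGs, all of female C57BL/6J mice. The 4 AL mice ate freely and the 4 CR mice received 40% less food, for 4 months from 6 or 7 months of age, and all were 10 or 11 months old at collection. Values listed for a group follow the replicate numbers 1 to 4. Restriction was reached stepwise, mice shared cages, and every group was female and of 1 inbred strain. The study kept 2 cohorts on different diet formulations at different sites, and which cohort these libraries came from is not given in the sources used here. In 1 of these cohorts the CR chow also held 40% more vitamins and micronutrients than the AL chow. The paper also states that CR mice were fed daily, shortly before the dark phase. Such differences cannot be told apart from the restriction itself.

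The sodium pump exchanges intracellular sodium for extracellular potassium and so keeps the ion gradients that drive fluid secretion in tear and salivary glands. Its catalytic subunit needs a glycosylated β subunit to fold and reach the membrane, and the β isoform changes the affinity of the pump for potassium and sodium. FXYD proteins are small membrane proteins with a single transmembrane helix that bind the pump and tune its kinetics. In secretory acini the pump works from the basolateral membrane beside the sodium-potassium-chloride cotransporter and potassium channels.

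The 3 β subunit genes lie on different chromosomes. In GENCODE annotation of GRCm38 (mm10), Atp1b1 spans chr1:164437109-164458355, Atp1b2 chr11:69599736-69605942 and Atp1b3 chr9:96332655-96364442, all on the minus strand. Fxyd2 spans chr9:45399669-45410278 on the plus strand. Fxyd5 at chr7:31032722-31042481, Fxyd1 at chr7:31051678-31057199 and Fxyd3 at chr7:31068172-31076704 follow one another on the minus strand within 43983 bases, with gaps of 9196 and 10972 bases. Exons of Atp1b1 overlap Nme7 and exons of Fxyd3 overlap Lgi4 on the opposite strand. Counts of reads there could be affected if counting ignored strand, and the sources used here do not state the strand setting. Fxyd5 overlaps Mir7050 on its own strand, where reads could be affected under either setting. No stretch of 75 bases, the read length, in the last 600 bases of a member's transcripts was shared with another gene.

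RefSeq promoter windows on GRCm38.p6, from 250 bases before to 50 after a start site, were found for 5 of the 7 members. The windows of Atp1b1 (chr1:164458306-164458605, minus strand) and Atp1b3 (chr9:96364382-96364681, minus strand, the more upstream of its start sites) are shown because these β isoforms lay on opposite sides of the AL range in 3 of 4 CR libraries. Capitals mark GC boxes (GGGCGG) and CCAAT boxes (CCAAT) on either strand, and the E-box CACGTG and the TATA box TATAAA were searched in the same way.
Atp1b1: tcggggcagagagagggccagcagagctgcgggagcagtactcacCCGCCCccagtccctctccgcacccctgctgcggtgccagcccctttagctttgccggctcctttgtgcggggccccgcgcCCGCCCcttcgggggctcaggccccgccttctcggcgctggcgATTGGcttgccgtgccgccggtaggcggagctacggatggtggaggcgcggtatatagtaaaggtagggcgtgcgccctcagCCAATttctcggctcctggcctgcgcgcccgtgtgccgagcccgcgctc
Atp1b3: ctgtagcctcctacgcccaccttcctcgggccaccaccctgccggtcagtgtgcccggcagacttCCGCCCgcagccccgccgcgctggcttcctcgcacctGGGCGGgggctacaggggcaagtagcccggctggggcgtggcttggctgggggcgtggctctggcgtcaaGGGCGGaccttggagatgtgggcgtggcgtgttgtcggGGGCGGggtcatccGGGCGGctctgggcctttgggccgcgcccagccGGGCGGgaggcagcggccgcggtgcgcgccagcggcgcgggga
The Atp1b1 window held 2 GC boxes and 2 CCAAT boxes and was 71.0% G and C. The Atp1b3 window held 6 GC boxes and was 76.0% G and C. Neither held an E-box or a TATA box in these letters, while the window of another Atp1b3 start site (chr9:96363666-96363965, not shown) held 1 E-box and none of the other motifs. Of all 32851 promoter windows, 35.7% held a GC box, 37.4% a CCAAT box, 7.15% an E-box and 13.6% a TATA box. These matches describe letters and not sites in use.

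Libraries held between 12051881 and 22156511 counted reads, and 3 counts, taken as the floor, were worth 0.152 to 0.231 CPM, the unit of all levels here, in which counts are set to a common library size scaled by relative log expression. CR replicate 4 stood apart from the other CR libraries, and results are given with and without it. The 8 parotid gland markers, such as Bpifa2 and the amylase gene Amy1, summed to between 13793 and 43288 CPM in AL, to 297379, 304750 and 245689 CPM in CR replicates 1 to 3 and to 56408 CPM in CR replicate 4. All 8 were higher on average in CR and 3 were called. Much of the parotid sum in AL and in CR replicate 4 was Car6, the secreted carbonic anhydrase gene. Car6 was at 11777 to 28476 CPM in AL and at 36509 CPM in CR replicate 4. In AL replicate 4, Bpifa2 was at 190 CPM and Amy1 at 45.4 CPM. The 8 markers of lacrimal secretion summed to between 152281 and 167879 CPM in AL, to 91620, 68174 and 60829 CPM in CR replicates 1 to 3 and to 156494 CPM in CR replicate 4. Most of that sum was the odorant-binding protein gene Obp1a (152614 CPM in CR replicate 4), which was not called. The 4 lacrimal markers called lower were Pigr, Pnliprp1, Scgb2b7 and Scgb1b7, and for each of them CR replicate 4 was below every AL library too, with Pnliprp1 at 2.83 CPM against 85.7 to 244 CPM in AL. Of the 8 lacrimal markers, 1 (Aqp5) had a log2 fold change above 0, at 0.31. Lcn11 was below every AL library in CR replicates 1 to 3. In CR replicate 4 it was above every AL library, at 3327 CPM against at most 2596 CPM. Neither Aqp5 nor Lcn11 was called. CR replicate 4 thus resembled AL in some genes and not in others. Of 5 submandibular and sublingual markers, which summed to 1.82 to 486 CPM in AL and 256 to 5725 CPM in CR, 3 could be tested, 1 was called higher and Smgc had no counts. Of the markers of endothelium, of smooth muscle and myoepithelium and of ducts 0 were called. Their sums were 7.55 to 11.6 CPM in AL and 11.1 to 14.5 CPM in CR for endothelium, and 7.54 to 13.5 CPM and 6.77 to 8.04 CPM for ducts. The smooth muscle and myoepithelium sum was 68.7 to 109 CPM in AL and 69.2, 43.6, 58.7 and 31.3 CPM in CR, with log2 fold changes of -0.68 for Myh11, -0.64 for Acta2 and -0.97 for Cnn1 (adjusted p 0.201, 0.21 and 0.187). The part of other glands in the results below was not tested. A parotid score, which averages the log2 CPM of the 8 parotid markers, was added to the fit as an alternative. The score did not overlap between AL and CR, so that fit cannot tell diet and parotid markers apart. In RNA from whole glands, fewer cells of a type and less RNA per cell cannot be told apart.

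Atp1b1 and Fxyd2 were the members with the largest differences, and both were several times higher in 3 of 4 CR libraries than in any AL library. Among the 6 members that passed the filter on low counts, 1 (Atp1b1) was called higher in CR and 0 lower by the study's thresholds, 0.05 for the adjusted p and 1.5 for the fold change (edgeR quasi-likelihood F test, Benjamini-Hochberg adjustment over 11211 genes). Of all genes tested 1.2% were called higher, 0.785% lower and 1.98% in either direction. The log2 fold change was above 0 for 4 members and below 0 for 2, with a median of 0.52 against 0.01 over all genes tested. In 0 of the 6 did the groups not overlap, against 9.79% of all genes tested. Without CR replicate 4, Atp1b1 and Fxyd2 were called higher and Atp1b3 lower, while 6.14% of all genes tested were called. DESeq2 called Atp1b1 and Fxyd2, and 6.28% of all genes. The contrast was used to choose the members, so nothing is read from these shares.

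**Figure D1:**
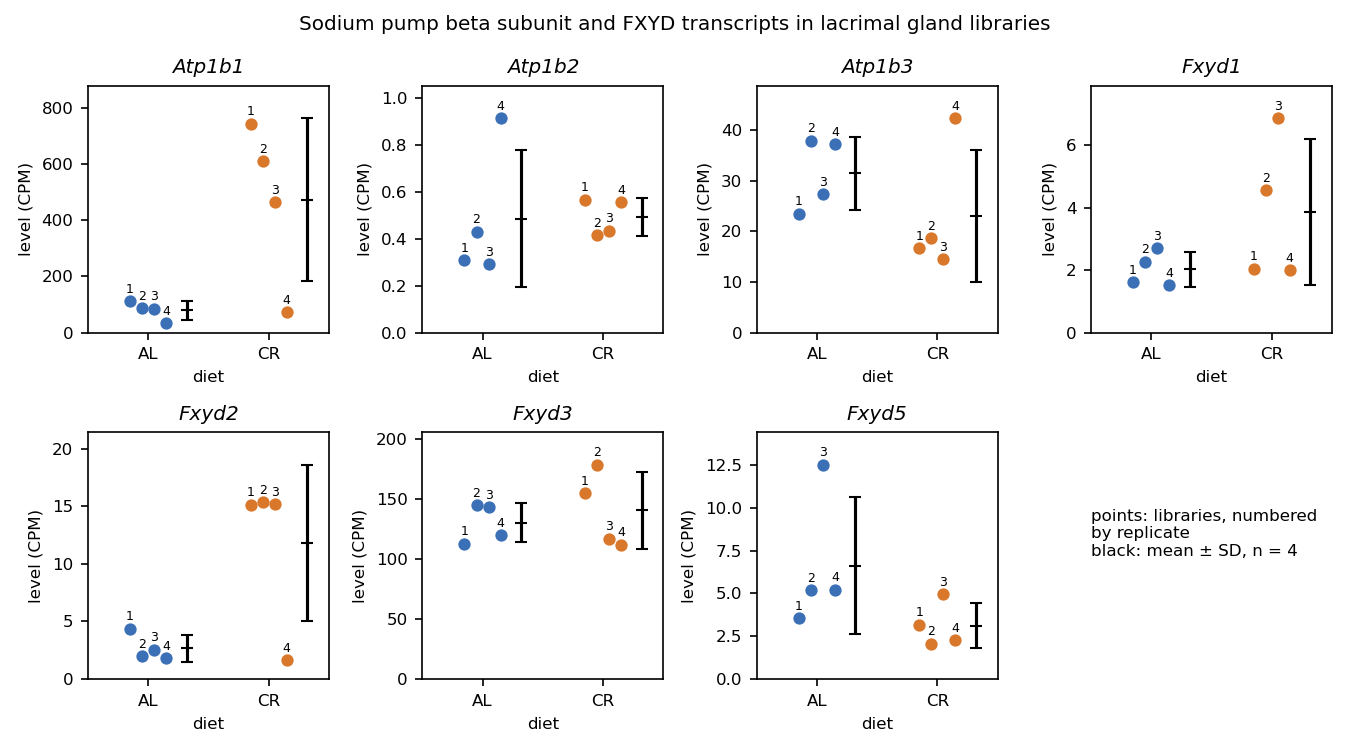
CPM of the 7 members on linear axes that start at 0, 1 panel per gene, with 1 point per library numbered by replicate and black bars for the mean ± SD of the 4 AL and 4 CR libraries. For Atp1b1 and Fxyd2, CR replicate 4, at 73.6 and 1.66 CPM, lies in or below the AL range, while the other 3 CR libraries lie above all AL libraries.

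Atp1b1 encodes β1, the β subunit most widely used in epithelia. Its level was 113, 88.0, 84.6 and 32.8 CPM in AL and 744, 611, 465 and 73.6 CPM in CR. CR replicates 1 to 3 were above every AL library, and CR replicate 4 lay inside the AL range. The means were 79.5 ± 33.5 CPM in AL and 473 ± 290.0 CPM in CR (SD, n = 4 each). The log2 fold change was 2.57 with a standard error of 0.57, a 95% interval of 1.33 to 3.82 and an adjusted p of 0.0431. The highest CR level was 10.1 times the lowest, against 3.43 times in AL. CR replicates 1 to 3 averaged 607 ± 139.9 CPM, which is 7.63 times the AL mean, whereas CR replicate 4 was at 0.926 of it. Leaving out CR replicate 4 gave a log2 fold change of 2.93 (SE 0.35) and an adjusted p of 0.000556. Leaving out any of the other 7 libraries, controls included, gave adjusted p-values of 0.0697 to 0.131 in the same edgeR test. The gene was called in none of these fits, while its log2 fold change stayed between 2.28 and 2.79. These smaller fits called 61 to 166 genes in all, against 222 with all 8 libraries. Adding the parotid score to the fit left a log2 difference of -0.021 (SE 0.87, adjusted p 0.994).

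Atp1b3 encodes β3, a broadly expressed isoform. It measured 23.5, 37.9, 27.3 and 37.2 CPM in AL and 16.7, 18.7, 14.5 and 42.4 CPM in CR. The first 3 CR libraries were below every AL library and the fourth was above every AL library. Group means were 31.5 ± 7.21 and 23.1 ± 13.0 CPM (SD, n = 4 each), with a log2 fold change of -0.45 (SE 0.32, 95% interval -1.14 to 0.24, adjusted p 0.533). CR replicates 1 to 3 averaged 16.6 ± 2.11 CPM, and the AL mean was 1.89 times that. Without CR replicate 4 the gene was called lower, at a log2 fold change of -0.92 (SE 0.22, adjusted p 0.025), and adding the parotid score gave 0.57 (SE 0.54, adjusted p 0.741).

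Atp1b2 encodes β2, known mainly from brain, where it is also an adhesion molecule of glia. It was barely counted, with 4, 7, 4 and 18 reads in AL and 8, 7, 7 and 10 reads in CR. It did not pass the filter on low counts. The mean levels were 0.485 ± 0.291 CPM in AL and 0.492 ± 0.0793 CPM in CR (SD, n = 4 each, exact permutation test, two-sided, p = 0.971). With 4 libraries against 4, the smallest p this test allows is 0.0286. At 10 reads the exact Poisson interval runs from 4.80 to 18.4 reads, so a moderate difference was not detectable at this depth.

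Of the reads counted on β subunit genes, Atp1b1 took 82.6, 69.7, 75.4 and 46.3% in AL and 97.7, 97.0, 96.9 and 63.2% in CR. Reads from 3' ends do not scale with transcript length, and these shares are set against each other between libraries only. For the extremes, exact binomial (Clopper-Pearson) 95% intervals were 43.6 to 48.9% in AL replicate 4 and 97.4 to 98.0% in CR replicate 1, and they cover counting error only. The mean share was 68.5 ± 15.7% in AL and 88.7 ± 17.0% in CR (SD, n = 4 each), and the groups overlapped through CR replicate 4. The difference of 20.2 percentage points was 28.7 without CR replicate 4 and 12.8 without AL replicate 4. The ratio of Atp1b1 to Atp1b3 reads was 4.80, 2.32, 3.10 and 0.883 in AL and 44.4, 32.7, 32.1 and 1.74 in CR. AL replicate 4 was the single library in which Atp1b3 had more reads than Atp1b1. It also had the lowest parotid marker sum of the 8 libraries, and a link between these was not tested.

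**Figure D2:**
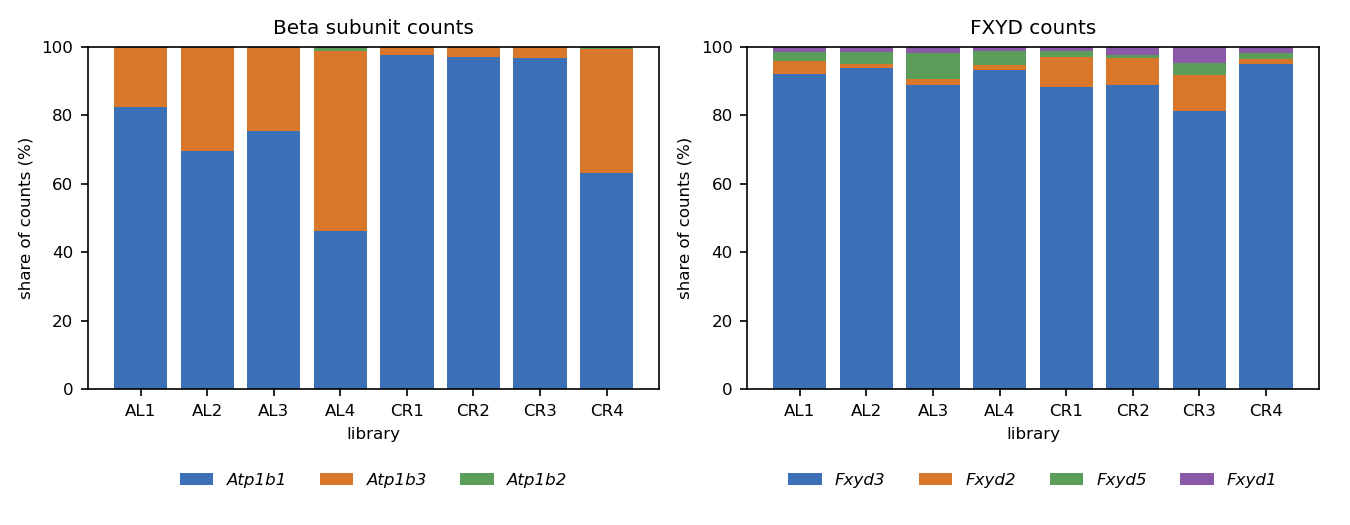
Stacked bars from 0 to 100% of the reads on β subunit genes (left) and on FXYD members (right), 1 bar per library and 1 colour per gene. Atp1b1 takes 46.3 to 82.6% of β reads in AL and 96.9 to 97.7% in CR replicates 1 to 3, with CR replicate 4 at 63.2%, and Fxyd3 takes most FXYD reads in every library.

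Fxyd2 encodes the γ subunit, a pump regulator best known from kidney tubules. It measured 4.39, 1.96, 2.55 and 1.82 CPM in AL and 15.1, 15.4, 15.2 and 1.66 CPM in CR. The first 3 CR libraries lay close together and above every AL library, and the fourth was the lowest of all 8. Behind these levels were 32 to 57 reads in AL, 214 to 260 reads in CR replicates 1 to 3 and 30 reads in CR replicate 4, whose exact Poisson interval of 1.12 to 2.38 CPM is far below the other CR values. The means were 2.68 ± 1.18 and 11.8 ± 6.78 CPM (SD, n = 4 each). The log2 fold change of 2.15 (SE 0.56, 95% interval 0.94 to 3.36) had an adjusted p of 0.0703 in edgeR and did not pass. DESeq2 gave an adjusted p of 0.00219 and edgeR without a filter on low counts gave 0.018. With a block for the replicate number edgeR gave 0.0187, but libraries sharing a number are not shown to be pairs. In contrast, edgeR gave 0.0709 with TMM factors, 0.0649 with at least 10 counts in every library and 0.0678 without the 50 most counted genes. Leaving out any library other than CR replicate 4 gave 0.0946 to 0.196, with log2 fold changes of 1.99 to 2.49. The fit without CR replicate 4 gave 2.52 on the log2 scale (SE 0.30, adjusted p 0.000581). CR replicates 1 to 3 averaged 15.2 ± 0.140 CPM, 5.68 times the AL mean and 9.14 times CR replicate 4. Adding the parotid score to the fit left 0.34 (SE 1.02, adjusted p 0.939).

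Parotid markers were highest in the same 3 CR libraries as a sum, but not each of them followed Atp1b1 and Fxyd2 in CR replicate 4. For 3 of the 8 (Bpifa2, Amy1 and Dnase1) CR replicate 4 lay inside the AL range, and for the other 5 (Prb1, Prh1, Prp2, Prpmp5 and Car6) all 4 CR libraries were above every AL library. Prb1, a proline-rich salivary protein gene, was at 418 CPM in CR replicate 4 against at most 90.4 CPM in AL, and Car6, the secreted carbonic anhydrase gene, at 36509 CPM against at most 28476 CPM. Bpifa2, a protein of parotid saliva, measured 17725, 9805, 7910 and 189.9 CPM in AL and 167792, 165017, 151041 and 13685 CPM in CR. Amy1 showed the same order of groups, with 5624, 2857, 1879 and 45.4 CPM in AL and 39244, 50700.5, 31776 and 3273 CPM in CR. Of the 28 pairs of libraries, Atp1b1 ranked 26 and Fxyd2 22 in the same order as Bpifa2, and Atp1b3 ranked 7. Over the 8 libraries, Pearson's r with the parotid score was 0.896 for Atp1b1, 0.800 for Fxyd2 and -0.676 for Atp1b3, given as a description, since the score and the genes were read from the same libraries. The score was 3.78 to 8.29 in AL and 10.1 to 13.3 in CR and so did not overlap between the groups. The fit with this score had wider errors than the fit without it and called 3 genes in all, all higher, and 0 members, against 1105 genes and 0 members at an unadjusted p under 0.05. Diet and parotid score cannot be told apart in these libraries.

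**Figure D3:**
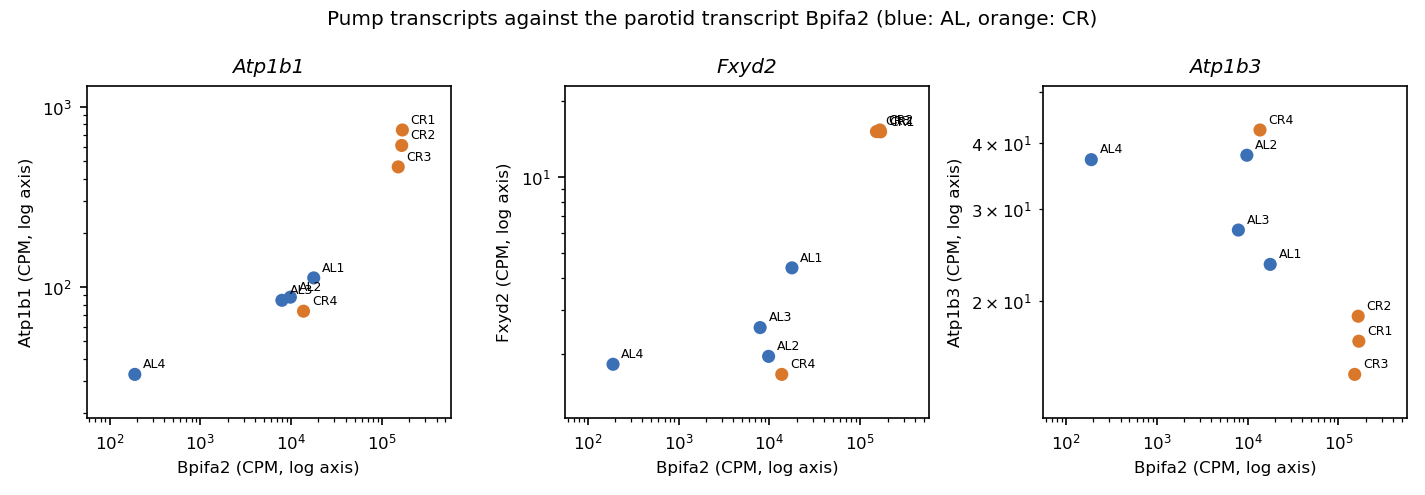
CPM of Atp1b1, Fxyd2 and Atp1b3 against CPM of Bpifa2, both on log axes, with 1 labelled point per library (blue for AL, orange for CR). Atp1b1 and Fxyd2 are highest in CR replicates 1 to 3, where Bpifa2 is 151041 to 167792 CPM and Atp1b3 is lowest, and CR replicate 4 has 13685 CPM of Bpifa2.

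Fxyd3, also known as Mat-8, is an FXYD regulator of epithelia such as stomach and mammary gland. It measured 113, 145, 143 and 119.9 CPM in AL and 155, 179, 117 and 112 CPM in CR. CR replicates 1 and 2 were above every AL library, CR replicate 3 lay inside the AL range and CR replicate 4 was the lowest of the 8. With means of 130.3 ± 16.3 and 140.6 ± 31.8 CPM (SD, n = 4 each), the log2 fold change was 0.11 (SE 0.20, adjusted p 0.849). Its 95% interval of -0.32 to 0.54 does not reach a fold change of 1.5 in either direction. Fxyd3 took 81.3 to 94.96% of the reads on the 4 FXYD members, while Fxyd2 took 3.58, 1.27, 1.58 and 1.42% in AL and 8.64, 7.66, 10.5 and 1.41% in CR. The level of Fxyd3 was the least variable of the 6 tested members, with a highest to lowest ratio of 1.28 in AL and 1.60 in CR.

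Fxyd1 encodes phospholemman, the FXYD protein of heart and skeletal muscle. It measured 1.62, 2.27, 2.69 and 1.52 CPM in AL and 2.05, 4.55, 6.87 and 1.997 CPM in CR. CR replicates 2 and 3 were above every AL library and the other CR libraries were inside the AL range. Means were 2.02 ± 0.556 and 3.87 ± 2.33 CPM (SD, n = 4 each), and the log2 fold change of 0.93 (SE 0.44, 95% interval -0.03 to 1.90) had an adjusted p of 0.314. Leaving out CR replicate 3 gave 0.51. The summed CPM of 8 skeletal muscle markers was 1.29 to 13.4 in AL and 3.32, 65.7, 4.02 and 47.3 in CR. The 6 adipose markers summed to 6.62 to 17.4 CPM in AL and to 47.3, 32.9, 70.3 and 11.0 CPM in CR, and 0 of the muscle and adipose markers were called. Peripheral glia markers summed to 14.5 to 19.2 CPM in AL and 89.5, 71.6, 91.5 and 28.6 CPM in CR, with Sox10 called higher and Pmp2 at 0. Their part in the Fxyd1 values was not tested.

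Fxyd5, also called dysadherin, is an FXYD protein found in epithelia and in leukocytes that lowers cell adhesion. It measured 3.54, 5.21, 12.5 and 5.22 CPM in AL and 3.18, 2.07, 4.95 and 2.27 CPM in CR. CR replicates 1, 2 and 4 were below every AL library, and CR replicate 3 lay inside the AL range. Means were 6.62 ± 4.01 and 3.12 ± 1.31 CPM (SD, n = 4 each), 2.12 times higher in AL by the fit. The log2 fold change of -1.08 (SE 0.42, 95% interval -1.997 to -0.17) had an unadjusted p of 0.0236 and an adjusted p of 0.206, and did not pass. Leaving out AL replicate 3, the highest library, gave -0.59. The 6 leukocyte markers, among them the pan-leukocyte gene Ptprc, summed to 44.3, 60.5, 164 and 44.6 CPM in AL and 26.9, 22.1, 32.9 and 20.1 CPM in CR, so that AL replicate 3 was highest and CR replicate 3 highest within CR for both. Of these markers 2 could be tested and 0 were called. Their part in the Fxyd5 values was not tested.

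**Figure D4:**
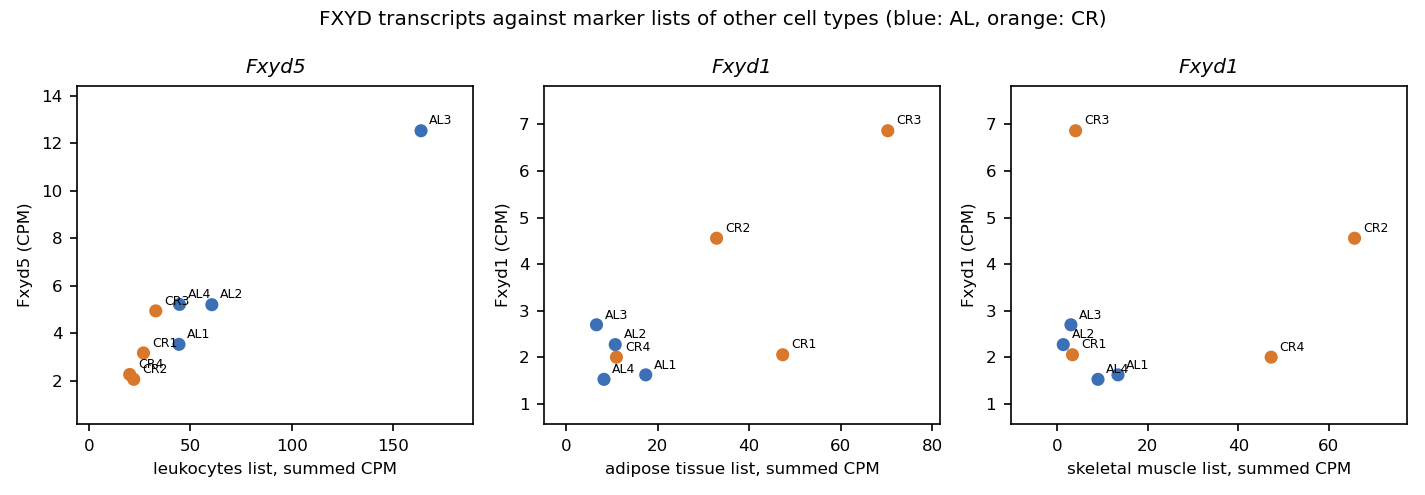
CPM of Fxyd5 against the summed CPM of the leukocyte markers (left), and of Fxyd1 against those of the adipose (middle) and skeletal muscle markers (right), on linear axes with 1 labelled point per library (blue for AL, orange for CR). AL replicate 3 is highest on both axes of the Fxyd5 panel, at 12.5 and 164 CPM, and CR replicate 3, highest for Fxyd1 at 6.87 CPM, has an adipose sum of 70.3 and a muscle sum of 4.02 CPM.

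The fitted changes of the members, with and without CR replicate 4 and with the parotid score, are set side by side in the plot of log2 fold changes. Fxyd1, Fxyd3 and Fxyd5 were called in none of the 3 fits.

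**Figure D5:**
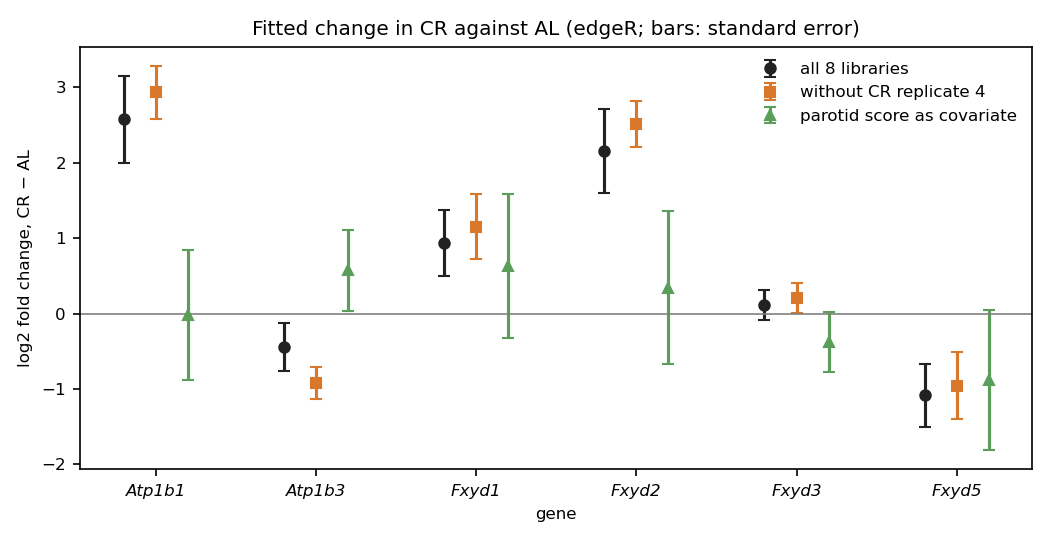
Fitted log2 fold changes of CR over AL for the 6 tested members, with standard errors as bars, from all 8 libraries (circles), without CR replicate 4 (squares) and with the parotid score in the fit (triangles). For Atp1b1 the 3 values are 2.57, 2.93 and -0.021, for Fxyd2 2.15, 2.52 and 0.34, and for Atp1b3 -0.45, -0.92 and 0.57.

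Other genes of the family were scarce. Of 9 listed, 2 could be tested and 0 were called, with a median log2 fold change of 0.82 against 0.01 over all genes tested. Fxyd6, an FXYD protein known from brain, was at 0.385 to 1.60 CPM in AL and 0.943 to 2.78 CPM in CR (log2 fold change 0.88, SE 0.54, adjusted p 0.453). Nkain1, which belongs to a family of proteins that interact with the β1 subunit, was at 0.557 to 1.46 CPM in AL and 1.12 to 2.16 CPM in CR (0.76, SE 0.46, adjusted p 0.457). Atp1b4, Atp4b and Fxyd4 had no counts in the 8 libraries, which allows up to 0.152 to 0.231 CPM per library. Fxyd7, Nkain2, Nkain3 and Nkain4 had at most 7 counts in a library.

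The pump works with other genes of fluid secretion, of which 16 were listed, transporters and channels together with the kinases Sgk1, Wnk1, Stk39 and Oxsr1 that regulate them. Of the 13 tested, 1 was called higher and 0 lower in CR, where 1.2% of all genes tested were called higher and 0.785% lower, with log2 fold changes above 0 for 10 and below 0 for 3 and a median of 0.31 against 0.01 over all genes tested. Kcnn4, a calcium-activated potassium channel of gland cells, was called, at 50.3, 64.0, 59.3 and 21.3 CPM in AL and 213, 194, 173 and 86.5 CPM in CR (log2 fold change 1.78, SE 0.35, adjusted p 0.0277). All 4 CR libraries were above every AL library, unlike Atp1b1. Slc12a2, the basolateral sodium-potassium-chloride cotransporter, was at 100.7, 77.3, 68.1 and 36.0 CPM in AL and 433, 576, 338 and 57.4 CPM in CR (2.32, SE 0.54, adjusted p 0.0505), so CR replicate 4 again lay inside the AL range. Scnn1a, a subunit of the epithelial sodium channel, had a log2 fold change of 1.14 (adjusted p 0.251), and Ano1, the calcium-activated chloride channel, of 0.86 (adjusted p 0.239). The 3 genes under the filter were Cftr, Scnn1b and Scnn1g. Scnn1b, another subunit of the sodium channel, had 0, 7, 5 and 0 reads in AL and 18, 35, 26 and 9 reads in CR, and its CR levels were all above its AL levels (two-sided p = 0.0286 by exact permutation, the lowest this design allows), but it was not called by edgeR without a filter (adjusted p 0.147) or without CR replicate 4 (0.0773). The same permutation test gave p = 0.143 for Cftr and p = 0.257 for Scnn1g. Without CR replicate 4, 15 of the 16 could be tested and 3 were called higher, while 6.14% of all genes tested were called in either direction. These were Slc12a2 at 2.67 (adjusted p 0.000522), Kcnn4 at 1.99 (0.00226) and Cftr, a chloride channel (0.0141). Cftr had 0, 3, 5 and 0 reads in AL and 37, 42, 35 and 0 reads in CR, so it passed the filter only through the CR libraries where it was high, and edgeR without a filter on all 8 libraries did not call it (adjusted p 0.0838). Adding the parotid score to the fit left differences of -0.15 (SE 0.82) for Slc12a2 and 0.15 (SE 0.53) for Kcnn4.

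Likeness across the 8 libraries was measured by Pearson's r of log2 CPM, as a description, since all values come from the same libraries and the diet groups are pooled. Atp1b1 and Fxyd2 ran together (r = 0.959), and both ran against Atp1b3 (-0.885 and -0.959). Slc12a2 was close to Atp1b1 (0.990). Of all genes tested, those most like Atp1b1 were the glycosyltransferase genes Gcnt1 (0.994) and Galnt6 (0.993), and Pml (0.992), the gene of nuclear bodies. The chromatin gene Dek (0.993), Ifrd1 (0.992) and B4galt6 (0.982) were most like Fxyd2. Atp1b3 was followed most closely by Zbtb20, a transcription factor gene (0.981), the small GTPase gene Rhoa (0.976) and Lrp2, which encodes megalin (0.972). For Fxyd5 the closest were the leukocyte genes Lsp1 (0.983) and Slamf7 (0.980) and the phospholipase gene Pla2g2d (0.977). For Fxyd1 these were Cavin2, of caveolae (0.963), Scaf11 (0.955) and Il6ra (0.933), and for Fxyd3 they were Csnk1g3 (0.928), Ndrg3 (0.923) and Ppp1r37 (0.918).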

How the data were processed

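Total RNA of 8 exorbital LGs was made into QuantSeq 3' FWD libraries and sequenced as single reads of 75 bases. Per the labels and the study's methods, the authors used cutadapt to trim, STAR with the mm10 genome to align and HTSeq to count, and deposited raw counts per gene as well as log2 values normalized with DESeq2. The log2 values matched log2 of scaled counts plus 1 to within 0.000124 and were used for nothing else. The strand setting, the tool versions and the annotation behind the counts are not given in the sources used here.

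Of 24557 rows, 5 with repeated symbols were dropped, 16735 genes had a count and 11211 passed filterByExpr. CR was compared with AL in R 4.3.3 with edgeR 4.0.16, with RLE factors, quasi-likelihood F tests, no covariate and Benjamini-Hochberg adjustment over all genes tested. A call needed an adjusted p below 0.05 together with a 1.5-fold change or more. The biological coefficient of variation was 34.7%, and log2 CPM used a prior count of 2. The SE is the log2 fold change over the square root of F, and levels are means ± SD. Genes under the filter were compared by exact permutation tests. P-values measure the spread between mice of these groups, which the labels number but do not otherwise describe. Depth was 12051881 to 22156511 reads per library, and since reads carried no molecular identifiers, intervals and the floor of 3 counts cover counting error only. The pipeline was tested on simulated counts.

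The members and the gene lists were chosen with earlier results of these data known. Genes named are all members and 9 relatives, the called and the 4 most changed of the 13 tested fluid secretion genes among 16 listed, and the 3 genes most correlated with each tested member. Cftr, Scnn1b and Scnn1g were named after their values were seen. Alternatives were TMM factors, DESeq2 1.42.0, 2 other filters, a replicate block, scaling without the 50 most counted genes, no fold threshold, a parotid score in the fit and each library left out in turn. Positions come from GENCODE vM21 and promoters from RefSeq. The catalytic subunit genes are not reported here.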

Additional observations from a re-analysis of the deposited data

Results flagged for a closer look

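Values were examined in each diet for the members, their relatives, 4 fluid secretion genes and the Atp1b1 share of β subunit reads, which made 35 groups of 4 values that were not all 0. Of these, 8 had a value so far from the other 3 that its gap passed Dixon's 95% critical value, which chance alone passes in about 1 in 20 groups. In CR these were Atp1b3 in replicate 4, at 42.4 CPM against 14.5 to 18.7 CPM in the others, Fxyd2 in replicate 4, at 1.66 CPM against 15.1 to 15.4 CPM, and the Atp1b1 share of β subunit reads in replicate 4, at 63.2% against 96.9 to 97.7%. All 3 came from the CR library that also had the lowest parotid marker sum within its group. The share includes Atp1b3 reads, so these flags are not independent, and a link to the parotid sum was not tested.

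The other flags concerned genes of at most 7 reads in a library. Where the other 3 libraries are at 0, any single read passes the limit, so the rate given above does not apply. Nkain2 at 0.253 CPM and Nkain3 at 0.355 CPM in AL replicate 4, Nkain4 at 0.0613 CPM in AL replicate 2 and Nkain3 at 0.111 CPM in CR replicate 4 each stood against 0 in the other 3 libraries. Nkain4 was at 0.371 CPM in CR replicate 3 against at most 0.0555 CPM in the other CR libraries.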

How the results depend on the processing

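Of 90 values of the 6 tested members over 15 alternatives, 74 kept their direction and side of the threshold. Another 5 passed newly, 7 kept their direction but no longer passed, and 4 reversed. Among the reversed values, that of Atp1b1 with the parotid score also no longer passed. DESeq2 called 704 genes (387 higher, 317 lower) and 2 members, and no filter on low counts 436 (271 and 165) and 2 members. The replicate block gave 700 (388 and 312) and 2 members, Atp1b1 at 2.30 and Fxyd2 at 1.89, but samples sharing a number are not shown to be pairs (correlations of their deviations were 0.149, 0.0795, 0.244 and 0.462, and AL replicate 3 correlated best with CR replicate 1, at 0.324). The parotid score left 3 (3 and 0; 620 and 485 at an unadjusted p under 0.05) and 0 members, with reversed values of -0.021 for Atp1b1, 0.57 for Atp1b3 and -0.37 for Fxyd3. Leaving out each library gave 61 to 700 calls (35 to 453 higher, 25 to 247 lower) and 0 to 3 members. The count was 700 without CR replicate 4, and 61, 64, 65, 78, 87 and 121 without AL replicate 2, CR replicate 3, CR replicate 2, AL replicate 1, AL replicate 3 and CR replicate 1. Among these fits, each that kept CR replicate 4 called 0 members. Fxyd3 ranged from -0.019 without CR replicate 2 to 0.20 without CR replicate 4. The cause was not tested. Depth limits Atp1b2, Fxyd1 and Fxyd2, whose lowest libraries held 4, 21 and 30 reads.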
